A study of Mus musculus with 36 samples.

Results

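The cytosolic ribosomal protein genes were followed in liver RNA of mice after an injection of bacterial lipopolysaccharide (LPS). The members were all protein-coding genes whose symbol is that of a small-subunit protein (Rps and a number, or Rpsa) or of a large-subunit protein (Rpl and a number, or Rplp0, Rplp1 and Rplp2), taken from the reference annotation by name and not by any measured value. This gave 83 of the 34829 genes in the table. Of these, 80 passed the filter on low values, a mean of at least 5 over all libraries, as did 8702 genes in all: 32 of the small subunit, 45 of the large subunit and the 3 stalk proteins. The 3 members that did not pass were Rpl3l, Rpl10l and Rpl39l, large-subunit paralogues with a mean of under 0.5. The members nearest the limit were Rpl10l outside it (mean 0.362) and Rpl35 inside it (mean 7.36).

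A ribosome has a small subunit, which reads the mRNA, and a large subunit, which joins amino acids. Each is made of ribosomal RNA and a fixed set of small basic proteins, mostly with 1 copy of each, and in cells the proteins are made in matched amounts. The mRNAs of nearly all of them belong to the 5′ TOP class: they start with a C followed by a run of C and T, and their translation is controlled as a group by the kinase complex mTORC1 and the RNA-binding protein LARP1. The liver makes much of the plasma protein of the body and changes this output during inflammation.

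The animals were mice of the inbred strain C57BL6/J. One set was kept at 22 °C, ordinary room temperature, and the other at 30 °C, a temperature near that at which a mouse spends no extra energy on warmth. Livers were taken 0, 4, 12 and 24 h after LPS, with 4, 4, 5 and 5 libraries at 22 °C and 5, 4, 4 and 5 at 30 °C. No genotype, sex, age or LPS dose is given in the labels, no group was left without LPS at the later times, and the labels do not say that libraries of a group came from separate animals. P-values therefore measure the spread between these libraries, and a change since 0 h cannot be told apart from one of time alone. Libraries were made by a version of CEL-Seq2, in which reads start near the poly(A) tail. The value used is the deposited signal in scaled reads per base, called signal below. A difference is on the log2(signal + 1) scale with its SE, and a gene is called when its adjusted p is below 0.05 (limma, Benjamini-Hochberg over the 8702 genes). The name of the signal implies a division by transcript length, which in a method that reads 3′ ends would lower long transcripts. How this was done was not given in the sources used, so the levels of different members are not ranked below. The ratio of a paralogue to its parent is compared only between groups, and the shares of signal held by copies carry this limit.

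The libraries held an estimated 556788 to 2744090 reads (summed signal over the worth of 1 read). The 30 °C group at 24 h had 710059 to 2295040 and the 22 °C group at 24 h had 778585 to 931345. At 4 h and 30 °C, library 4 stood apart from the rest: it had a signal above 0 in 18633 genes, against 12307 to 14233 in the other 35 libraries, and its members took the lowest share of signal. Results for that group are given with and without it. At 0 h and 30 °C, library 3 had the fewest estimated reads of all, 556788. Its members took 2.60% of signal, against 3.16% to 3.44% in the others of its group. The hepatocyte markers Alb, Apoa1, Apoa2, Ttr, Serpina1a, Tat and Cps1 were above 0 in all 36 libraries, in accord with the labelled tissue.

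The 5′ TOP class is defined at the start of the mRNA. RefSeq promoter windows (GRCm38.p6) were matched by symbol for 63 of the 83 members, with 75 starts. A run of at least 8 bases that were all C or T lay between 50 bases before and 50 bases after the start in 77.3% of these, against 35.7% of the 32851 starts in the table. On the opposite strand, where the same search finds runs of A or G, the shares were 22.7% and 38.1%. The starts below belong to members that the results turn on and whose run begins within 6 bases of the start: those that rose at 24 h at both temperatures (Rplp2, Rps6 and Rps9), at 22 °C alone (Rps27), those higher at 30 °C than at 22 °C (Rps26, Rpl28 and Rpl13a), and a paralogue that was lower there (Rpl22l1). Each window has 30 bases, 5′ to 3′ on the strand of the gene, and capitals mark the run of C and T.
Rplp2 (chr7:141447636-141447665, plus strand): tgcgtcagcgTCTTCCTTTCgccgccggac
Rps6 (chr4:86857349-86857378, minus strand): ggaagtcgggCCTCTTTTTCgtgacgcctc
Rps9 (chr7:3704025-3704054, plus strand): aaccgccttgTCTCTCTTTgtctcgggcct
Rps27 (chr3:90213631-90213660, minus strand): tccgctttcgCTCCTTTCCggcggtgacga
Rps26 (chr10:128626484-128626513, minus strand): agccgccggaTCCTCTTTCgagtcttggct
Rpl28 (chr7:4792953-4792982, plus strand): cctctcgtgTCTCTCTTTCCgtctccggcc
Rpl13a (chr7:45128722-45128751, minus strand): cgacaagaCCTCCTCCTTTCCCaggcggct
Rpl22l1 (chr3:28805499-28805528, plus strand): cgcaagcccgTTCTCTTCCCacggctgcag
In Rplp2, Rps6, Rps9, Rps27 and Rpl28 the run crossed the annotated start, and in Rps26, Rpl13a and Rpl22l1 it began within 4 bases after it. In other members named below the run was farther away, beginning 40 bases after the start in Rpl12, 41 in Rps2 and Rpl10, 28 in Rpl36a and 14 in Rpl11. It began 39 bases before the start in Rpl22, 22 in Rps27l and 52 in Rpl26. In Rps19 it began 40 bases after an annotated start and 45 before another, and in Rps21 35 after and 36 before. Some members named below, such as Rplp0, Rplp1, Rps20 and Rpl3, had no matched start or no such run. The reads come from 3′ ends, so the start in use in these livers was not measured.

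At 0 h the members took 2.80 ± 0.173% of all signal in the 4 libraries at 22 °C (mean ± SD) and 3.18 ± 0.340% in the 5 at 30 °C. The 1 member called between the temperatures was Rpl10, lower at 30 °C, where 0.414% of all genes tested were called lower and 0.0919% higher. Its signal is mostly assigned to a near-identical copy, as described further on, and the call was lost when the copy was added, without replicate 1 or 4 at 22 °C or replicate 2 at 30 °C, with no filter and with the compared groups alone. The median difference of the 80 members was 0.08, against 0.01 over all genes tested, and 10 members had an unadjusted p below 0.05. Rplp0, the protein that anchors the stalk on the large subunit, was at 242, 286, 241 and 261 in the 22 °C libraries and at 259.7, 292, 252, 262 and 272 in the 30 °C libraries. The ranges overlapped, and the difference was 0.06 ± 0.11 (adjusted p = 0.929). Rpl12, a large-subunit protein at the base of the stalk, had the highest difference among the members, 0.87 ± 0.21 (adjusted p = 0.0541), and did not pass.

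**Figure D1:**
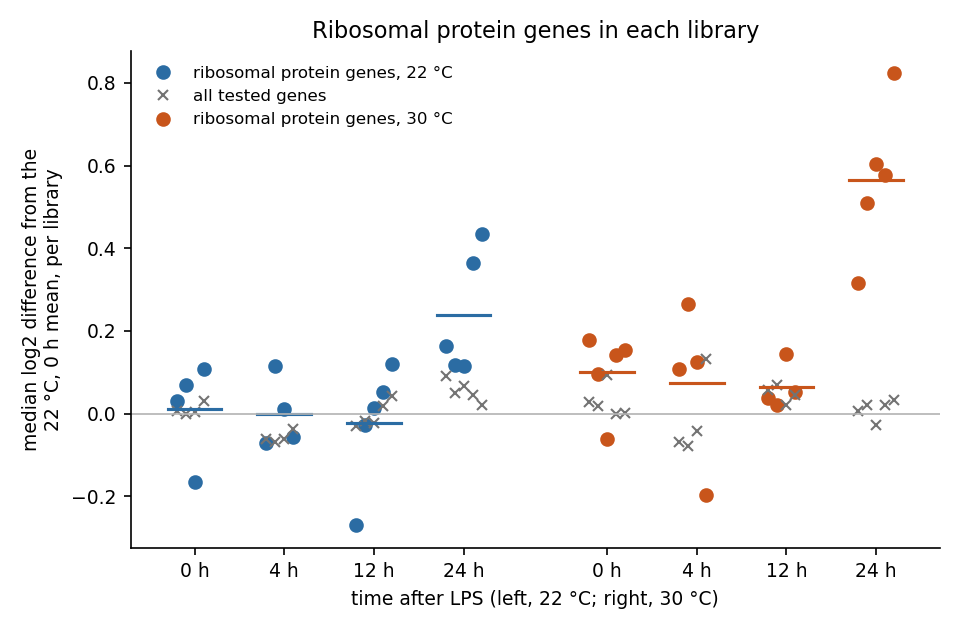
Each point is 1 library: the median over the 80 tested ribosomal protein genes of the log2 difference from the mean of the 22 °C libraries at 0 h (filled circles, blue at 22 °C and orange at 30 °C), with the same median over all 8702 tested genes (grey crosses) and the group mean of the circles (bars). The 24 h circles reach 0.12 to 0.44 at 22 °C and 0.32 to 0.82 at 30 °C, while the crosses at 24 h stay between -0.03 and 0.09.

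At 4 h few members were called in either direction. At 22 °C, 2 of 80 rose and none fell, where 15.8% of all genes tested rose and 13.6% fell. These were Rps20, a small-subunit head protein, at 0.61 ± 0.18 (adjusted p = 0.00724), and Rpl29, a small basic protein of the large subunit, at 0.58 ± 0.21 (adjusted p = 0.0324). Rps20 read 150.4, 127, 125 and 167 at 0 h and 232, 234, 190.2 and 214 at 4 h, and the groups did not overlap. The call of Rpl29 was lost in 5 of the 8 fits that each left out 1 library of the compared groups (adjusted p up to 0.15), with no filter, with upper-quartile rescaling, with the compared groups alone and with its copies added (adjusted p = 0.0832). At 30 °C, 5 members rose and 4 fell, against 17.8% and 14.6% of all genes, and the split was 1 and 8 with libraries rescaled by their upper quartile. Rps20 rose there too, by 0.51 ± 0.17 (adjusted p = 0.0185), a call lost without replicate 5 at 0 h or replicate 3 at 4 h, with upper-quartile rescaling (adjusted p = 0.122) and with the compared groups alone.

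The falls at 4 h and 30 °C were in Rpl12, Rpl28, Rpl13a and Rpsa. Rpl13a, a large-subunit protein also known from an inhibitory complex on inflammatory mRNAs in macrophages, read 347, 345, 359.7, 379 and 464 at 0 h and 307, 236, 301 and 188 at 4 h, a difference of -0.57 ± 0.15 (adjusted p = 0.00242). The 4 libraries at 4 h lay below all 5 at 0 h. Rpl28 went from 259 ± 24.9 (SD, n = 5) to 177 ± 56.7 (n = 4), with library 4 lowest at 95.1. Without that library 5 members were called instead of 9, 4 higher and 1 lower, and the calls of Rpl12 (adjusted p = 0.0826), Rpl28 (adjusted p = 0.102) and Rpsa (adjusted p = 0.131) were lost. These 3 were also lost with the compared groups alone (adjusted p = 0.0537, 0.0792 and 0.113), and the last 2 with array weights. Rpsa, the laminin-receptor protein of the small subunit, was at 387, 292, 428 and 221 in the 4 libraries. No member was called between the temperatures at 4 h or in the interaction, which subtracts the 22 °C response from the 30 °C response. By limma 5 and 6 members had an unadjusted p below 0.05, where 0.023% of all genes were called higher and 0.184% lower between the temperatures and 0.0115% in the interaction, all lower.

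At 12 h members were called in both directions, and in each direction less often than genes in general. At 22 °C, 6 rose (7.5%) and 5 fell (6.25%), against 20.7% and 20.6% of all genes tested. At 30 °C 11 rose (13.8%) and 9 fell (11.2%), against 19.3% and 18.9%. Most members were not called at either temperature. The median of the members stayed near 0 at each temperature, -0.05 and 0.00. The same 5 members rose at both temperatures, Rps9, Rps19, Rpl27a, Rpl7l1 and Rpl22l1, which is 5 of 6 at 22 °C and 5 of 11 at 30 °C. Rps2, Rps21 and Rpl11 fell at both, 3 of 5 and 3 of 9, though the call of Rpl11 at 22 °C was lost without replicate 1 at 12 h (adjusted p = 0.0522). These overlaps were not counted over all genes tested, so they have no background here. At 30 °C the call of Rpl27a was lost without replicate 3 at 12 h (adjusted p = 0.0546) and with the compared groups alone, and that of Rps21 with upper-quartile rescaling (adjusted p = 0.0916). With libraries rescaled by their upper quartile the split at 30 °C was 17 to 4, and that scaling moved the median of all genes there from 0.01 to 0.11. It also moved that median from -0.10 to -0.20 at 4 h and 22 °C, from -0.04 to -0.17 at 4 h and 30 °C, and from -0.03 to 0.08 at 24 h and 30 °C.

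Rps9, a core protein of the small subunit that binds early in assembly, read 347, 360.5, 343 and 377 at 0 h and 400.0, 618, 502, 622 and 597 at 12 h in the 22 °C libraries, a difference of 0.60 ± 0.14 (adjusted p = 0.000996). All 5 later libraries were above the highest at 0 h. In the 30 °C libraries it read 461, 369, 344, 446 and 426 and then 738, 588, 596 and 648, again with no overlap, a difference of 0.65 ± 0.14 (adjusted p = 0.000377). Rps19, the small-subunit protein most often mutated in Diamond-Blackfan anaemia, rose by 0.49 ± 0.17 at 22 °C and 0.50 ± 0.17 at 30 °C (adjusted p = 0.0190 and 0.0185). Leaving out 1 library lost the call in 3 fits at 22 °C (adjusted p up to 0.0992) and 2 at 30 °C (up to 0.0601).

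Rps2, a small-subunit protein at the mRNA entry, moved the other way. It read 767, 953, 1074 and 1054 at 0 h and 646, 800.3, 636, 673 and 539.6 at 12 h in the 22 °C libraries, and 931, 986, 817, 890.1 and 1171 and then 674, 565, 667 and 524 in the 30 °C libraries. The groups did not overlap at 30 °C, and at 22 °C 1 library at 0 h lay inside the later range. The falls were -0.54 ± 0.18 and -0.66 ± 0.18 (adjusted p = 0.0150 and 0.00382), and at 22 °C it was not called without replicate 3 at 0 h (adjusted p = 0.0517). Rpl11, which with Rpl5 can bind the p53 regulator Mdm2, fell by 0.58 at 30 °C (SE 0.17, adjusted p = 0.00586), from 569 ± 43.9 (SD, n = 5) to 384 ± 56.3 (n = 4).

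Rpl36, a large-subunit protein, also fell at 12 h and 30 °C. It read 184, 114, 119, 108 and 105 at 0 h and 78.6, 52.7, 64.0 and 66.1 at 12 h, -0.92 ± 0.21 (adjusted p = 0.000774), and every 12 h library was below every 0 h library. With the signal of its near-identical copies added, described further on, the fall was -0.64 ± 0.20 (adjusted p = 0.00958). Rpl28 and Rplp1, an acidic protein of the stalk, were called lower at 22 °C, at -0.64 ± 0.18 (adjusted p = 0.00448) and -0.58 ± 0.13 (adjusted p = 0.000405). At 30 °C their differences were -0.40 ± 0.18 and -0.16 ± 0.13 and did not pass (adjusted p = 0.0775 and 0.334). No member was called between the temperatures at 12 h or in the interaction by limma, with 4 and 3 at an unadjusted p below 0.05, where 0.977% of all genes were called higher and 3.29% lower between the temperatures, and 0.0689% higher and 0.207% lower (0.276% in all) in the interaction. With replicate 5 of the 22 °C group at 12 h left out, 1 member passed in each of these, and with replicate 2 of the 30 °C group at 12 h left out 1 passed between the temperatures.

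At 24 h the calls among the members were nearly all higher. At 22 °C 20 of 80 rose and 1 fell, where 19.0% of all genes tested rose and 18.0% fell, and the share of members that rose, 25.0%, is near that background. The share that fell, 1.25%, is far under it. At 30 °C 48 of 80 rose, 60%, and none fell, where 15.3% of all genes rose and 14.4% fell. The median difference was 0.23 at 22 °C and 0.52 at 30 °C, against 0.03 and -0.03 over all genes tested. Between all libraries at 24 h and all at 0 h there was no overlap for 17 members that were higher at 22 °C and 35 at 30 °C, where 13.9% and 9.87% of all genes were higher without overlap. Lower without overlap were 1 member at 22 °C and none at 30 °C, against 14.5% and 10.3% of all genes. The share of all signal in the members was 3.50 ± 0.338% at 22 °C and 4.21 ± 0.356% at 30 °C (SD, n = 5 each).

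**Figure D2:**
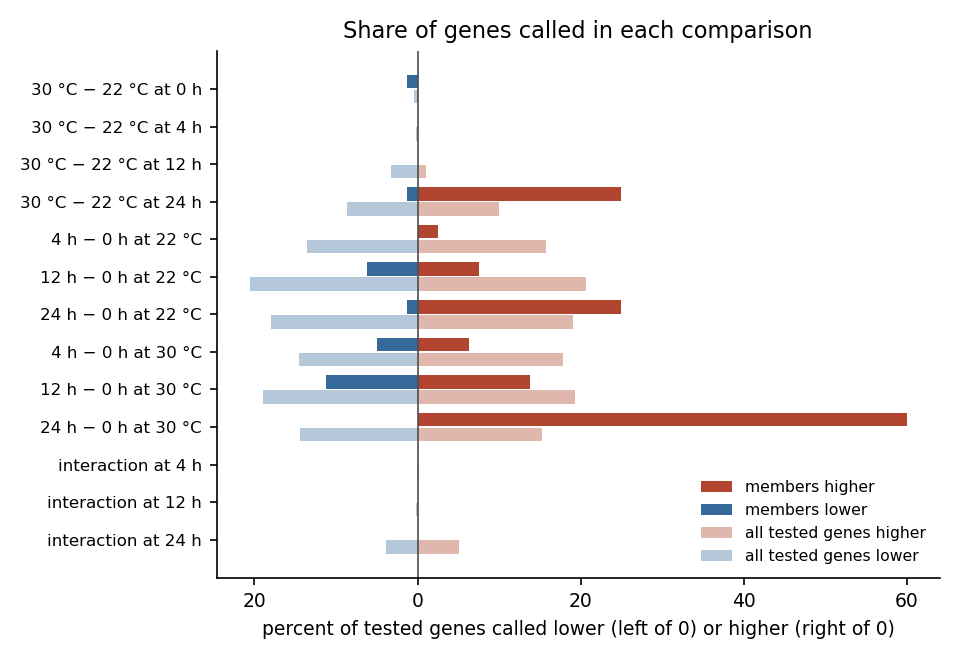
Horizontal bars give the percent of the 80 tested members (dark) and of all 8702 tested genes (pale), red where higher and blue where lower, called higher (right of 0) or lower (left of 0) in each of the 13 comparisons. The longest member bar is the 60% called higher at 24 h and 30 °C, beside 15.3% of all genes.

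By subunit, 12 of the 32 small-subunit genes (37.5%) and 6 of the 45 large-subunit genes (13.3%) rose at 22 °C, where 19.0% of all genes tested rose. The large-subunit share there is below the background. At 30 °C 22 of 32 (68.8%) and 23 of 45 (51.1%) rose, against 15.3% of all genes. Of the 3 stalk genes 2 rose at 22 °C and 3 at 30 °C. The 22 °C and 30 °C lists shared 19 genes, which is 19 of 20 and 19 of 48. The same overlap over all genes tested was not counted, so it is not shown to be particular to the members. Rps27 was in the 22 °C list alone, 29 genes were in the 30 °C list alone, and 31 members rose at neither. A gene that passed at 1 temperature and not at the other is not thereby shown to differ, and the interaction that tests this is given further on. In whole tissue fewer cells of a type and less RNA per cell cannot be told apart.

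Cell-type markers moved between 0 and 24 h as well, and their part in the result was not tested. The summed signal of the 10 leukocyte markers was 90.6 to 135 at 0 h and 151 to 379 at 24 h in the 22 °C libraries. In the 30 °C libraries it was 87.2 to 155 at 0 h but for library 3, at 347, and 338 to 522 at 24 h. Of the 7 tested, 2 rose and 1 fell at 22 °C, 5 rose at 30 °C, and 2 were higher at 30 °C than at 22 °C at 24 h. The rises at both temperatures were in S100a8 and S100a9, proteins of neutrophils. The lymphocyte markers Cd3e and Cd79a were listed at 0 in 18 and 12 of the 36 libraries, and Coro1a in 18. The 7 hepatocyte markers summed to 26604 to 34048 at 0 h and 13154 to 18383 at 24 h at 22 °C, and to 24746 to 39240.1 at 0 h and 12646 to 19041 at 24 h at 30 °C. Of these 5 and 4 fell, and Tat, a tyrosine-degrading enzyme, rose at both. The Kupffer cell markers, of the liver's resident macrophages, summed to 111 to 163 at 0 h and 27.5 to 61.5 at 24 h at 22 °C, and to 145 to 191 at 0 h and 28.0 to 59.3 at 24 h at 30 °C, with 1 of 5 higher at each and 3 and 4 lower. The endothelial sum was 202 to 285 at 0 h and 50.5 to 106 at 24 h at 22 °C, and 231 to 341 at 0 h and 67.6 to 158 at 24 h at 30 °C, with 3 of 4 tested lower at each, and Clec4g was listed at 0 in all 5 libraries at 24 h and 22 °C. The stellate sum, mostly Dcn, lay between 408 and 719 in these groups, with 2 and 3 of 4 lower. Mitochondrially encoded genes took 13.0 to 15.2% and 15.1 to 18.1% of signal at 0 h, at 22 °C and 30 °C, and 7.36 to 9.91% and 7.86 to 10.0% at 24 h.

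The stalk binds the elongation factors and is built from Rplp0 with Rplp1 and Rplp2. Rplp2 had the smallest p of any member at 30 °C. It read 330.0, 435, 213, 399 and 414 at 0 h and 655, 869, 879, 1082 and 769.5 at 24 h, a difference of 1.27 ± 0.18 (adjusted p = 6.49e-07) and 2.38 times in the group means. In the 22 °C libraries it read 453, 462, 449 and 554 and then 864, 809.7, 591, 859 and 827, a difference of 0.71 ± 0.19 (adjusted p = 0.00261). There was no overlap between the times at either temperature. Every 30 °C library lay below every 22 °C library at 0 h, although Rplp2 was not called between the temperatures then. Its 30 °C group mean was 0.75 times that at 22 °C at 0 h and 1.08 times at 24 h. Rplp0 read 382, 393, 342, 407 and 367 at 24 h and 22 °C and 319, 386, 398, 463 and 402 at 24 h and 30 °C. It had risen by 0.55 ± 0.11 and 0.55 ± 0.10 (adjusted p = 8.61e-05 and 6.75e-05). Rplp1 rose at 30 °C, from 1100.2, 1024, 1007, 1075 and 1015 to 1148, 1483, 1440.5, 1606 and 1028, with 1 library inside the range at 0 h (0.34 ± 0.12, adjusted p = 0.0291), and read -0.05 ± 0.13 at 22 °C (adjusted p = 0.817). The call of Rplp1 at 30 °C was lost in 5 of the 10 fits with 1 library left out (adjusted p up to 0.103), with no filter and with the compared groups alone.

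Rps6, the small-subunit protein that S6 kinase phosphorylates below mTORC1, read 239, 254, 207 and 256 at 0 h and 318, 298, 324, 451 and 445 at 24 h in the 22 °C libraries, a difference of 0.60 ± 0.17 (adjusted p = 0.00439). In the 30 °C libraries it read 249, 237, 178, 228 and 272 and then 352, 403, 346, 456 and 532, a difference of 0.84 ± 0.16 (adjusted p = 8.49e-05). Each 24 h group lay wholly above its 0 h group. Rps19 rose to 413, 319, 319, 509.9 and 479.9 at 22 °C (0.80 ± 0.17, adjusted p = 0.000264) and to 394, 492, 483, 546 and 566 at 30 °C (0.89 ± 0.16, adjusted p = 4.21e-05). It had been called higher at 12 h as well, and no library at 24 h overlapped those at 0 h. Rps9 read 628 ± 56.6 and 653 ± 122 at 24 h (SD, n = 5 each), with differences of 0.81 ± 0.14 (adjusted p = 2.55e-05) and 0.66 ± 0.13 (adjusted p = 0.000247). Rps20 rose by 0.60 ± 0.17 and 0.99 ± 0.16 (adjusted p = 0.00430 and 7.29e-06). Rps27, a zinc-binding small-subunit protein, rose by 0.61 ± 0.17 at 22 °C (adjusted p = 0.00368) and read 0.40 ± 0.16 at 30 °C, just short of the threshold (adjusted p = 0.0545).

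**Figure D3:**
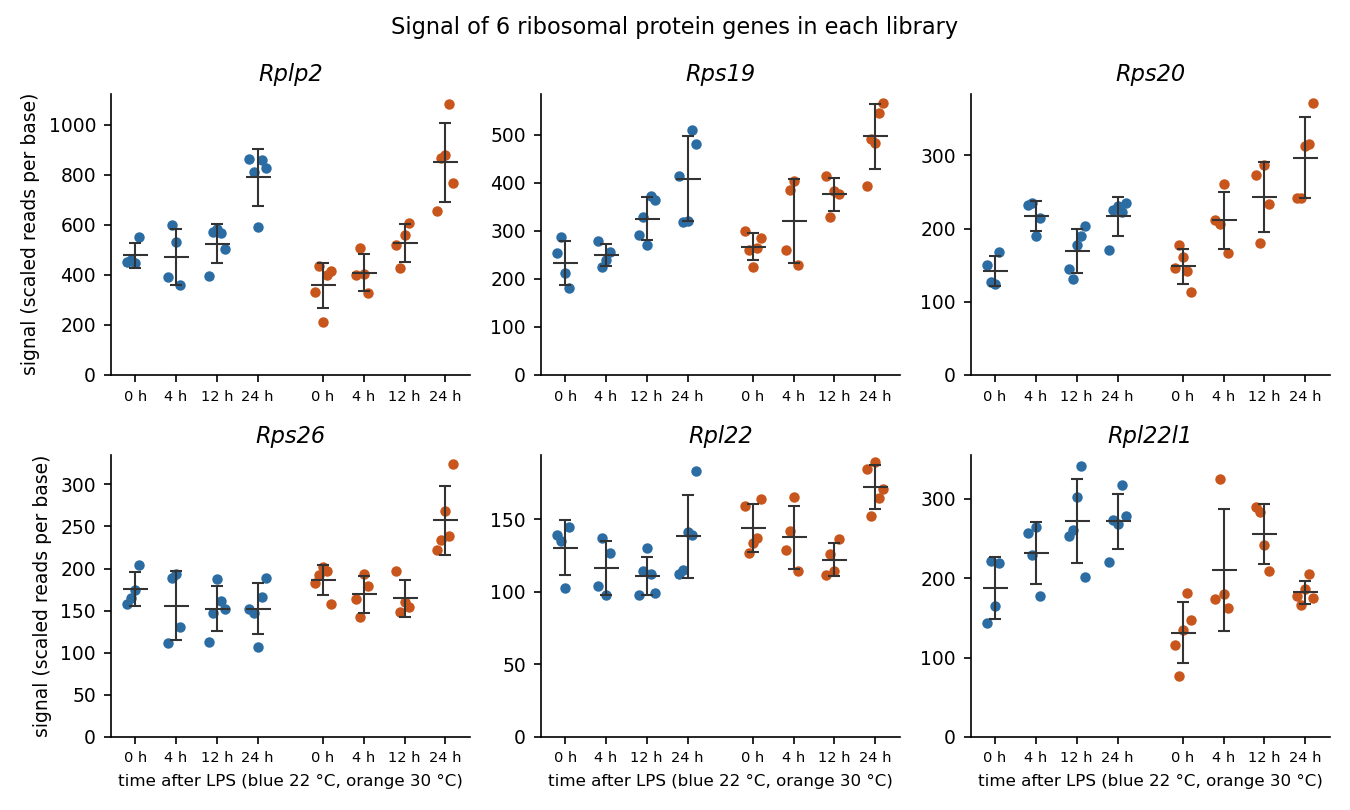
Signal (scaled reads per base, axes from 0) of 6 ribosomal protein genes in each library by time after LPS, blue at 22 °C and orange at 30 °C, with the group mean (tick) and SD (whiskers). Rplp2, Rps19 and Rps20 are higher at 24 h at both temperatures, Rps26 is higher at 24 h in the 30 °C libraries, and Rpl22l1 has its highest 30 °C group mean at 12 h; Rpl22 was called in no comparison.

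Large-subunit genes were called mostly at 30 °C. Rpl3, a protein of the peptidyl transferase centre, read 75.6, 79.5, 54.1, 78.8 and 61.5 at 0 h and 134, 136, 97.8, 133 and 149 at 24 h there, with no overlap, a difference of 0.89 ± 0.18 (adjusted p = 0.000196). In the 22 °C libraries it went from 76.4 ± 17.1 (SD, n = 4) to 101 ± 21.1 (n = 5), and 0.40 ± 0.19 did not pass (adjusted p = 0.0950). Rpl36a, a zinc-binding protein near the exit site, read 669.8, 584, 443, 625 and 613 and then 816, 896, 887, 1098 and 1344 in the 30 °C libraries, a difference of 0.77 ± 0.16 (adjusted p = 0.000288). In the 22 °C libraries it read 591, 528, 481 and 609.7 and then 715, 479.5, 446, 671 and 667, with overlap, a difference of 0.09 ± 0.17 (adjusted p = 0.721). The other members called at 30 °C lay between 0.34 and 1.47.

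The 1 member that fell at 24 h was Rpl26, a large-subunit protein near the peptide exit, at 22 °C. It read 303, 285, 271 and 257 at 0 h and 190.4, 210.0, 196, 217 and 222 at 24 h, and no library overlapped. The difference was -0.43 ± 0.14 (adjusted p = 0.0150), with an adjusted p of 0.0592 (limma) under upper-quartile rescaling. At 30 °C it read 295 ± 45.0 and 296 ± 51.8 (SD, n = 5 each), a difference of 0.00 ± 0.13. Rps2 and Rpsa read 859.9 ± 67.8 and 536 ± 127 at 24 h in the 30 °C libraries (SD, n = 5), differences from 0 h of -0.15 ± 0.17 and 0.22 ± 0.15 that did not pass (adjusted p = 0.551 and 0.272).

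**Figure D4:**
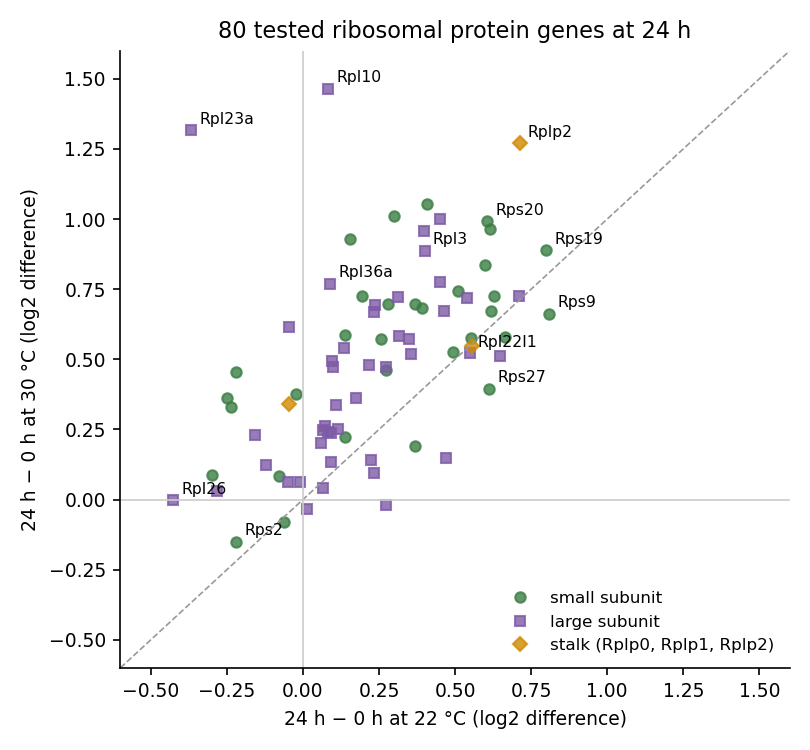
Each point is 1 of the 80 tested ribosomal protein genes, with its log2 difference between 24 h and 0 h at 22 °C (x axis) and at 30 °C (y axis), by subunit. The dashed line marks equal differences. Rplp2 sits at 0.71 and 1.27, and Rpl26 at -0.43 and 0.00; the 2 points labelled Rpl10 and Rpl23a at the top have near-identical copies that hold most of the combined signal.

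Compared directly at 24 h, 20 of 80 members were higher at 30 °C than at 22 °C and 1 was lower, against 9.93% and 8.71% of all genes tested. The median difference was 0.34 for the members and -0.03 for all genes, and 12 members were higher and 1 lower without overlap, where 5.62% and 5.72% of all genes were. By subunit 7 of 32 small, 13 of 45 large and none of the 3 stalk genes were higher. Mean depth was also higher in the 30 °C libraries at 24 h, 1425270 estimated reads against 856360, with the ranges given above. Library 3 at 30 °C, with 710059, was below every 22 °C library at that time. Of the cell-type markers tested, 2 of 4 endothelial (Clec4g and Kdr), 1 of 4 stellate (Lrat), 2 of 7 hepatocyte (Cps1 and Serpina1a), 2 of 7 leukocyte (Itgb2 and Lyz2) and 0 of 5 Kupffer cell markers were higher at 30 °C and none lower. The differences were 3.36 ± 0.47 for Clec4g, 2.76 ± 0.46 for Kdr, 2.84 ± 0.45 for Lrat, 2.18 ± 0.23 for Cps1, 0.42 ± 0.14 for Serpina1a, 1.10 ± 0.37 for Itgb2 and 1.91 ± 0.41 for Lyz2. The part of depth and of these cell types in the result was not tested. Leaving out 1 library left 12 calls without replicate 2 or replicate 3 at 22 °C, 13 without replicate 3 at 30 °C and 11 without replicate 5 at 30 °C. With no filter on low values it was 13, and the median over members stayed between 0.275 and 0.385 when any 1 library was left out.

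Rps26, a small-subunit protein at the mRNA exit, read 152, 148, 107, 167 and 189 at 24 h in the 22 °C libraries and 222, 234, 268, 238 and 324 in the 30 °C libraries. The groups did not overlap, and the difference was 0.76 ± 0.16 (adjusted p = 0.000799). Rpl36a differed by 0.76 ± 0.16 (adjusted p = 0.000739), also with no overlap, and Rpl13a by 0.53 ± 0.14 (adjusted p = 0.00649). Rpl13a read 451, 291, 349.6, 380.4 and 363 and 474, 521, 528, 483 and 624, again with every 30 °C library above every 22 °C library. Rpl26 read 282, 269, 243, 303 and 379.8 at 30 °C, above the 222 that was the highest at 22 °C, a difference of 0.50 ± 0.13 (adjusted p = 0.00697). Rpl29 and Rpl28 differed by 0.53 ± 0.18 and 0.48 ± 0.17 (adjusted p = 0.0412 and 0.0448). Each of these calls was lost in 6 of the 10 fits with 1 library left out (adjusted p up to 0.132 and 0.124), with no filter and with the compared groups alone, and that of Rpl29 with its copies added (adjusted p = 0.0574). Rps6, Rplp0, Rplp2, Rps19 and Rps9 were not called, with differences between 0.04 and 0.30.

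The change since 0 h was not shown to differ between the temperatures for any member. At 24 h no member passed in the interaction by limma, although 8.95% of all genes tested did, 5.07% higher and 3.88% lower. At an unadjusted p below 0.05 there were 17 members, all higher at 30 °C, and the median was 0.23, against -0.04 over all genes. The nearest to the threshold were Rpl36a (0.68 ± 0.23, adjusted p = 0.0583), Rps26 (0.68 ± 0.23, adjusted p = 0.0648) and Rpl23a (1.68 ± 0.60, adjusted p = 0.0751). This count turned on single libraries. Without replicate 1 of the 30 °C group at 24 h 5 members passed; 2 passed without replicate 5 of the 30 °C group at 0 h or replicate 4 or 5 of the 22 °C group at 24 h; and 1 passed without replicate 1 or 3 of the 22 °C group at 0 h, replicate 2 of the 30 °C group at 0 h, or replicate 1 or 3 of the 22 °C group at 24 h. The median SE of a member in this interaction was 0.24.

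Several members have an expressed paralogue, and the difference between a paralogue and its parent was not tested. One is Rpl22l1, a paralogue of the RNA-binding large-subunit protein Rpl22. In the 22 °C libraries it read 143, 222, 165 and 219.7 at 0 h, 257, 229, 264 and 177 at 4 h, 253, 261, 302, 342 and 202 at 12 h and 220.3, 273, 268, 318 and 279 at 24 h. In the 30 °C libraries it read 116, 76.8, 135, 182 and 147, then 173, 325, 180.2 and 163, then 289, 284, 241 and 209 and at 24 h 178, 166, 186, 205 and 175. The 30 °C values at 12 h lay above all those at 0 h and at 24 h. The difference since 0 h at 30 °C was 0.67 ± 0.20 (adjusted p = 0.0106) at 4 h, 1.00 ± 0.20 (adjusted p = 0.000165) at 12 h and 0.52 ± 0.19 (adjusted p = 0.0395) at 24 h. The call at 24 h was lost in 7 of the 10 fits with 1 library left out (adjusted p up to 0.171), with no filter and with the compared groups alone. The call at 4 h was lost without replicate 2 at 0 h (adjusted p = 0.0527) or replicate 2 at 4 h (adjusted p = 0.1), with upper-quartile rescaling and with the compared groups alone. At 22 °C it was 0.54 ± 0.20 (adjusted p = 0.0340) at 12 h and 0.55 ± 0.20 (adjusted p = 0.0335) at 24 h, and neither was called without replicate 1 at 0 h (adjusted p = 0.138 for each) or with no filter. In all, 4 and 6 of the 9 fits with 1 library left out lost these calls.

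Rpl22l1 was the 1 member lower at 30 °C than at 22 °C at 24 h, by 0.57 (SE 0.19, adjusted p = 0.0362), with no overlap between the groups. This call rests on a narrow margin: the adjusted p (limma) was 0.0727 with upper-quartile rescaling, 0.0503 with median-ratio rescaling and 0.0803 with no filter, and 8 of the 10 libraries could not be left out without losing it. Before LPS, at 0 h, Rpl22l1 was already lower at 30 °C, though not called. Its 30 °C group mean was 0.70 times that at 22 °C at 0 h and 0.67 times at 24 h. Rpl22 itself was called in no comparison and read 138 ± 28.6 and 172 ± 15.0 at 24 h (SD, n = 5 each). The ratio of Rpl22l1 to Rpl22 within a library was 1.45 ± 0.285 at 0 h (SD, n = 4), 2.45 ± 0.377 at 12 h (n = 5) and 2.01 ± 0.341 at 24 h (n = 5) at 22 °C. At 30 °C it was 0.914 ± 0.276 (n = 5), 2.12 ± 0.442 (n = 4) and 1.06 ± 0.115 (n = 5).

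Rpl7l1, a nucleolar paralogue of Rpl7, was called higher at 12 and 24 h at each temperature. It went from 44 ± 14.8 at 0 h (SD, n = 4) to 69.8 ± 11.8 at 24 h (n = 5) in the 22 °C libraries, a difference of 0.71 ± 0.22 (adjusted p = 0.0114). In the 30 °C libraries it went from 47.7 ± 6.48 to 79.3 ± 9.03 (n = 5 each), 0.72 ± 0.21 (adjusted p = 0.00818). Without replicate 4 of the 22 °C group at 0 h it was not called at 22 °C, at 24 h (adjusted p = 0.115) or at 12 h (adjusted p = 0.317, against 0.0449 with it), nor at 24 h with the compared groups alone. The 12 h call at 22 °C was lost in 6 of the 9 fits with 1 library left out and under 6 of the other alternatives (adjusted p up to 0.13). Rps27l, a p53-induced paralogue of Rps27, was called in no comparison, and its differences at 24 h were 0.37 ± 0.18 and 0.19 ± 0.17. Rps4x and Rps3a1 are the only Rps4 and Rps3a genes among the members, so neither was compared with a parent. Both were called at both temperatures. Rps4x rose by 0.63 ± 0.18 and 0.73 ± 0.17 at 24 h (adjusted p = 0.00510 and 0.00103) and Rps3a1 by 0.51 ± 0.16 and 0.74 ± 0.15 (adjusted p = 0.0102 and 0.000192).

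Ribosomal protein genes have many processed copies elsewhere in the genome, and reads from 3′ ends cannot always be assigned between them. The last 300 bases of each transcript of a member were compared with the transcripts of all other genes. At an identity of at least 97% over at least 110 bases, 416 gene models matched a member, and 25 of them had a mean signal of at least 5. In 14 of the tested members the copies held over 10% of the combined signal, and in 54 under 1%. The members most affected were Rpl10 (97.4% in copies), Rpl35 (94.1%) and Rpl23a (62%). Among the genes described above the share was 18.4% for Rps26, 17.3% for Rpl36, 11.9% for Rpl29 and 7.92% for Rps2, and at most 5.27% for Rplp2, Rps6, Rps9, Rps19, Rps20, Rplp0, Rpl36a and Rpl22l1.

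Rpl10, the protein that completes the large subunit (chrX:74270812-74273135, GRCm38, plus strand), had the largest share in copies. It read 76.4, 31.6, 29.5 and 44.5 in the 22 °C libraries at 0 h and 12.4, 3.64, 10.6, 12.2 and 19.6 in the 30 °C libraries, a difference of -1.92 ± 0.43 (adjusted p = 0.0230), and rose afterwards at 30 °C by 1.82 ± 0.43, 1.68 ± 0.43 and 1.47 ± 0.41 at 4, 12 and 24 h. Its copy Rpl10-ps3 (chr9:50344201-50344968) has the same 300 bases. The copy read 849, 1300.0, 982 and 1207 at 0 h at 22 °C and 1420.0, 1215, 976, 1287 and 1308 at 30 °C. With the signal of all its copies added, Rpl10 was not called at 0 h, with a difference of the opposite sign, 0.16 ± 0.15 (adjusted p = 0.798). The differences since 0 h at 30 °C were then 0.06 ± 0.15 (adjusted p = 0.780) at 4 h and 0.14 ± 0.15 (adjusted p = 0.497) at 12 h, and neither was called. At 24 h it had then risen by 0.38 ± 0.15 at 22 °C and 0.36 ± 0.14 at 30 °C (adjusted p = 0.0393 and 0.0454).

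**Figure D5:**
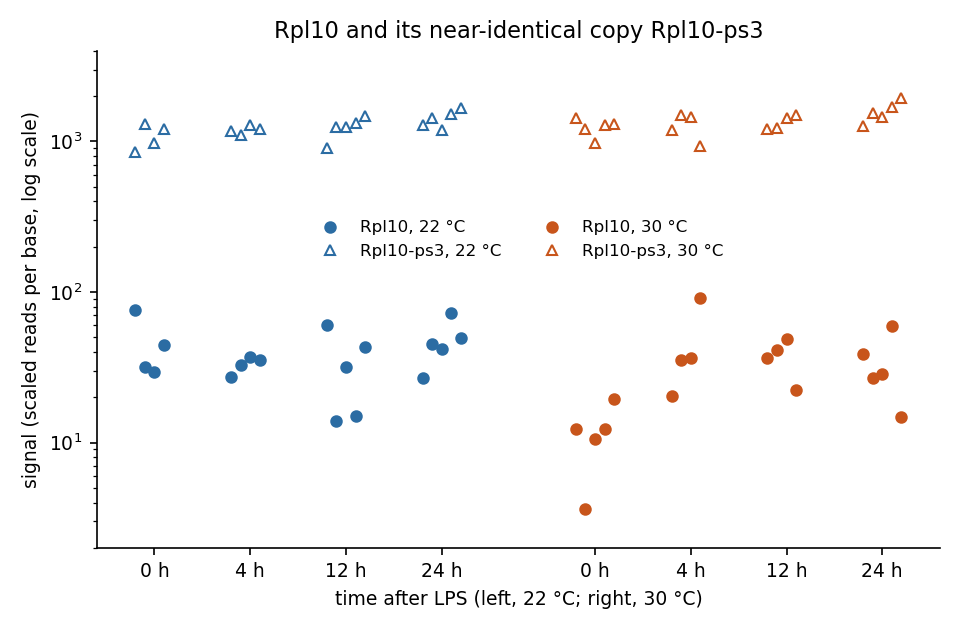
Signal (log scale) of Rpl10 (circles) and of its near-identical copy Rpl10-ps3 (triangles) in each library by time after LPS, blue at 22 °C and orange at 30 °C. The copy reads 849 to 1934 in all 36 libraries and Rpl10 reads 3.64 to 91.3.

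Rpl23a, the large-subunit protein at the peptide exit, read 28.4, 58.6, 114, 43.0 and 78.2 and 69.1, 148, 153, 187 and 121 at 24 h by itself, a difference of 1.14 ± 0.41 (adjusted p = 0.0493). That call was lost in 7 of the 10 fits with 1 library left out (adjusted p up to 0.16), with no filter, with a pseudocount of 0.5 and with the TPM column. With its copies added, of which Rpl23a-ps3 carries nearly all the signal, the difference was smaller and its SE much smaller, 0.66 ± 0.18 (adjusted p = 0.00748). Rpl35, a neighbour of Rpl23a at the exit, was not called at 24 h by itself and differed by 0.70 ± 0.16 (adjusted p = 0.00152) with its copies. Over all members, adding the copies gave 20 higher and 1 lower between the temperatures at 24 h, the same number but not all the same genes, and 47 rises in place of 48 at 30 °C. Rps26 was among the rises lost at 30 °C, 0.35 ± 0.16 (adjusted p = 0.0975) with copies.

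Other genes of ribosome production and translation were counted in the same fit, from lists drawn up with the members. Of 44 ribosome assembly factors tested, which process and fold ribosomal RNA but leave the finished particle, 23 rose (52.3%) and none fell at 24 h at 22 °C, where 19.0% of all genes rose and 18.0% fell. At 30 °C 10 rose (22.7%) and 2 fell (4.55%), against 15.3% and 14.4%. The medians were 0.81 and 0.30. Between the temperatures at 24 h 11 were lower at 30 °C (25.0%) and none higher, against 8.71% and 9.93% of all genes. The interaction called 7 lower (15.9%) and none higher, against 3.88% and 5.07%. Nop58, a core protein of the box C/D particles that guide methylation of ribosomal RNA, rose by 1.48 ± 0.24 at 22 °C and read -0.21 ± 0.23 at 30 °C, an interaction of -1.69 ± 0.33 (adjusted p = 0.00106). Gnl2, a nucleolar GTPase, rose by 1.84 ± 0.24 and 1.15 ± 0.23 (adjusted p = 1.72e-07 and 0.000181), and Rrs1 by 1.18 ± 0.28 and 2.10 ± 0.27 (adjusted p = 0.00111 and 1.29e-07).

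Of 17 other genes with 5′ TOP mRNAs, mainly elongation factors, 5 were higher (29.4%) and none lower at 24 h in the 22 °C libraries, and 8 higher (47.1%) and 2 lower (11.8%) in the 30 °C libraries. The background is the same as for the assembly factors. Eef1a1, the factor that brings aminoacyl-tRNA, was at -0.05 ± 0.12 at 22 °C and rose by 0.53 ± 0.12 at 30 °C. Its interaction of 0.59 ± 0.17 (adjusted p = 0.0234) was lost in 4 fits with 1 library left out (adjusted p up to 0.0518). That call was also lost with the compared groups alone (adjusted p = 0.0877). Eef1b2, the exchange factor of Eef1a1, rose by 0.91 ± 0.15 at 30 °C (adjusted p = 1.91e-05). Npm1, a nucleolar chaperone, rose by 0.35 ± 0.14 at 22 °C and read -0.43 ± 0.13 at 30 °C, where it fell (adjusted p = 0.0497 and 0.0151), an interaction of -0.78 ± 0.20 (adjusted p = 0.00934). Its call at 22 °C was lost in 7 of the 9 fits with 1 library left out (adjusted p up to 0.174). That call was also lost with no filter, with the TPM column and with the compared groups alone (adjusted p up to 0.134). The fall of Npm1 at 30 °C was lost without replicate 1 at 24 h, with upper-quartile rescaling (adjusted p = 0.104) and with the compared groups alone (adjusted p = 0.0519). Of 36 initiation factors 12 were called higher (33.3%) and 2 lower (5.56%) in the 22 °C libraries, and 8 (22.2%) and 3 (8.33%) in the 30 °C libraries, with Eif1a at both (1.99 ± 0.17 and 1.16 ± 0.16, adjusted p = 1.88e-11 and 6.01e-07). Between the temperatures at 24 h 11 initiation factors were lower at 30 °C (30.6%) and 1 higher (2.78%), against 8.71% and 9.93% of all genes. The interaction called 5 of them lower (13.9%) and 1 higher (2.78%), against 3.88% and 5.07%. The mitochondrial ribosomal proteins, which belong to a separate ribosome, had 5 rises and 10 falls of 71 at 22 °C (7.04% and 14.1%) and 12 rises and 3 falls at 30 °C (16.9% and 4.23%). These shares of rises are below or near those of all genes. Of 16 genes of mTORC1 signalling 5 were higher (31.2%) and 2 lower (12.5%) in the 22 °C libraries, and 4 and 4 (25.0% each) in the 30 °C libraries. Ddit4, which inhibits mTORC1, rose by 2.49 ± 0.31 and 2.31 ± 0.30 (adjusted p = 7.36e-08 and 1.49e-07). Polr1d was the 1 gene called at each temperature among 10 of RNA polymerase I, which makes ribosomal RNA, at 0.90 ± 0.24 (adjusted p = 0.00261) and 0.66 ± 0.22 (adjusted p = 0.0233). The call at 30 °C was lost with no filter and in 4 of the 10 fits with 1 library left out (adjusted p up to 0.076).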

How the data were processed

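Liver RNA was profiled in 36 libraries. Reads passed through Trimmomatic, kallisto and sleuth, per the submitters' processing notes. For their versions, the transcript index, the scaling and the molecular identifiers, details were not given in the sources used. Analysed values are the signal deposited by the authors as scaled reads per base, which is normalised and not a count. A second deposited column, named TPM, served as an alternative. Symbols and positions came from GENCODE mouse release 21 (GRCm38, 1-based), which matched 34406 of 34829 identifiers.

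The 8702 genes whose mean signal was 5 or more were fitted on log2(signal + 1) by limma 3.58.1 (R 4.3.3; lmFit, then eBayes with an intensity trend) with 8 group means, all 36 libraries and 13 two-sided contrasts, with Benjamini-Hochberg adjustment in each contrast. Log differences understate the change of low genes. The worth of 1 read was taken as the commonest positive value in a library, the same for all genes. On it, 3 reads were worth 1.33 to 5.05 of signal, which covers counting error only. In simulated data for 24 h against 0 h at 30 °C, 100 genes were changed by 0.5 on the log2 scale and 100 by 1, drawn at random from 8702. Of these 5% and 31% were recovered. The members vary less: between the temperatures at 24 h their median SE was 0.16, against 0.33 over all genes tested. Far more genes were also called in the real data, so these rates do not give the sensitivity for members. Copies were sought with BLAST+ 2.17.0.

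The members and lists were chosen with earlier results of these data known. The naming rule took Rplp0, Rpsa, Rps6, Rpl3, Rpl13a, Rpl22, Rps27 and the tested paralogues, and in each contrast the 3 largest called rises and falls among members averaging 20 or more in the higher group, and for companion lists up to 3 called genes of smallest p. One gene that this rule took is not reported here. Other genes named, such as Rpl35, Rpl27a and Rps21, were named after their values were seen. Alternatives were 2 pseudocounts, 2 filters, the TPM column, 2 rescalings, a fit on the compared groups alone, array weights, a replicate block, added pseudogenes and leaving out each library. Adding all near-identical copies was chosen after seeing the data.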

Additional observations from a re-analysis of the deposited data

Results flagged for a closer look

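In 248 checks of a group of 4 or 5 libraries, over the named members, their share of all signal and their median difference, 14 had a single library far from the others of its group; chance gives about 1 in 20. At 4 h and 30 °C, library 4 had 1.43% of signal in the members (others 2.55% to 2.77%), Rpl36a at 390.2 (others 593 to 597) and Rpl29 at 66.0 (others 72.6 to 73.5). With near-identical copies added, that library had Rpl29 at 112.9, the highest of its group (others 75.2 to 82.2). In the same group library 2 had Rpl22l1 at 325 (others 163 to 180.2). At 12 h and 30 °C, library 1 had 3.38% of signal in the members (others 3.59% to 3.62%).

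At 0 h and 30 °C, library 5 had Rpl11 at 493 (others 572 to 604) and Rpl13a at 464 (others 345 to 379), and library 1 had Rpl36 at 184 (others 105 to 119). At 0 h and 22 °C, library 4 had Rplp2 at 554 (others 449 to 462), and at 4 h and 22 °C library 4 had Rps27l at 179.7 (others 142 to 147). At 24 h and 22 °C, Rplp2 was at 591 in library 3 (others 810 to 864), Rps20 at 170.1 in library 1 (others 222 to 235) and Rpl29 at 102 in library 4 (others 61.9 to 73.3). At 24 h and 30 °C, Rpsa was at 753 in library 5 (others 446 to 533).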

How the results depend on the processing

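The calls of members at 24 h since 0 h, in either direction, stayed within 1.5 times their number under every alternative run. There were 18 to 23 at 22 °C and 42 to 52 at 30 °C with all libraries, and 15 to 23 and 41 to 52 with 1 left out. Without filter 13 members were called between the temperatures at 24 h in place of 21. At 0 h, where 1 was called, it was 2 with a pseudocount of 5, with a minimum mean of 20 or with the TPM column, and 0 with no filter, with the compared groups only, with pseudogenes added or with all copies added. At 12 h between temperatures, where 0 were called, it was 1 with a minimum mean of 20 and 2 with array weights. At 4 h and 22 °C 1 member was called in place of 2 with no filter, with the compared groups only or with copies added, and at 4 h and 30 °C 3 in place of 9 with the compared groups only. In the 24 h interaction 3 members were called with a minimum mean of 20 and 1 with upper-quartile rescaling, in place of 0. That rescaling moved the median of the members at 4 h and 30 °C from -0.05 to -0.20, and its split of calls from 5 higher and 4 lower to 1 and 8. Rpl10 at 0 h reversed, to 0.15 with pseudogenes added and 0.16 with all copies added; the cause of the other changes was not tested.

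Leaving out 1 library at a time gave 0 to 1 calls between temperatures at 0 h, 0 to 1 at 12 h and 11 to 26 at 24 h, 1 to 3 at 4 h and 22 °C, 5 to 12 at 4 h and 30 °C, and 0 to 1 and 0 to 5 in the interactions at 12 and 24 h. Replicate numbers gave no sign of pairing over all tested genes. Deviations from the group means of same-numbered libraries correlated at 0.00246 on average over 118 pairs (-0.125 to 0.11). Such an average cannot exclude a pairing. The numbers came from library titles, and for libraries 3 and 4 at 12 h and 30 °C the deposited sample names carry other numbers. With the number as a replicate block 3 members were called in the 24 h interaction in place of 0, all higher at 30 °C, and the block moved no other count of members by more than 1.5 times.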
